A study of Mus musculus with 4 samples.

Results

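The genes of the 6 GATA transcription factors (Gata1 to Gata6) and of their Friend of GATA cofactors, FOG1 (Zfpm1) and FOG2 (Zfpm2), were followed through the ATAC-seq peaks of differentiating mouse embryonic stem cells (mESCs). Overlapping peaks of the 4 peak lists were merged into union regions, each assigned to the nearest start of a protein-coding transcript within 100 kb. Of 40910 union regions in mm10, 35041 had such a start, and 31 of them were nearest to 1 of the 8 genes. Gata5 had 7 regions, Zfpm1 6, Gata6 5, Gata3 and Zfpm2 4 each, Gata4 3, Gata2 2 and Gata1 0. The nearest start is a naming rule and does not show which gene a region regulates.

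ATAC-seq reads open chromatin through the cuts of the Tn5 transposase. All libraries came from the wild-type line ES-E14TG2a, taken through cardiogenic differentiation in serum-free medium. The d4 cells (2 libraries) had been reaggregated as embryoid bodies with human Activin A, BMP4 and VEGF, and the d2 cells (2 libraries) were embryoid bodies collected before these factors were added. Replicates came from independent differentiation experiments of 1 line, d4 cultures held several cell types, and the comparison asks which chromatin opened or closed as endothelial cells (ECs) began to appear.

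GATA factors bind the letters GATA through zinc fingers. GATA1, GATA2 and GATA3 are best known from blood, where they serve red cells, progenitors and T cells, with GATA2 also active in ECs. GATA4, GATA5 and GATA6 act in the heart and the endoderm. The FOG proteins make no sequence-specific contact with DNA in this partnership. They dock on a GATA zinc finger and bring in co-repressors, FOG1 with GATA1 in red cell and platelet precursors and FOG2 with GATA4 in the heart.

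Reference sequences (RefSeq GRCm38, the assembly of mm10, plus strand) of 201 bp centred on the summit of the strongest peak are printed in lower case for 1 distal region called at d4 only and 2 called at d2 only, outside UTRs, to show regions that differed between the days, and for 3 further regions, added because they held the GATA letters. Capitals mark AGATAA or TGATAA on either strand (TTATCT where the match is on the minus strand) or the AP-1 letters TGANTCA. The first sequence, chr2:180354614-180354814, lies 19.9 kb upstream of Gata5 in a peak seen at d4 only and held none of the letters of the main search. Near its end it holds TGATAG, which counts as a match only in the wider search for GATA followed by A or G. It is centred on the summit of d4 replicate 1, and the summit of d4 replicate 2, 359 bp away, lies outside it. The second, chr2:180365728-180365928, lies 31.0 kb upstream of Gata5 in a peak seen at d2 only, with 1 AP-1 match. The third, chr8:122273196-122273396, lies 8.72 kb upstream of Zfpm1 in a peak seen at d2 only, with none of the letters. The next pair, chr8:122294238-122294438 and chr8:122313400-122313600, lie in introns of Zfpm1 and held 1 and 2 GATA matches. The last, chr15:40761678-40761878, lies in an intron of Zfpm2 with 1 GATA match.
Gata5 19.9 kb upstream, d4 only: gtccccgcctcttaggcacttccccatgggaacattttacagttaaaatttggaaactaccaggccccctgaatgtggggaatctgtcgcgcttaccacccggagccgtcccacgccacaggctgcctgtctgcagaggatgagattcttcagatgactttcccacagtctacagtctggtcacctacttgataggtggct
Gata5 31.0 kb upstream, d2 only: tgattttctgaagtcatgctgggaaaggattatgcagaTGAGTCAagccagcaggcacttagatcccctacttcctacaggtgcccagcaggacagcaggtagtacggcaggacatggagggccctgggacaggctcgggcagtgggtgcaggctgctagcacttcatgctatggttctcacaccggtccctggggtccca
Zfpm1 8.72 kb upstream, d2 only: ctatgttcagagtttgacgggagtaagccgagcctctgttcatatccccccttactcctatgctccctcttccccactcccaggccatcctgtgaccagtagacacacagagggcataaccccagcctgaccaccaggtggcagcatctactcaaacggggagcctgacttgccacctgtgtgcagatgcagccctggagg
Zfpm1 intron, 12.1 kb downstream of the start: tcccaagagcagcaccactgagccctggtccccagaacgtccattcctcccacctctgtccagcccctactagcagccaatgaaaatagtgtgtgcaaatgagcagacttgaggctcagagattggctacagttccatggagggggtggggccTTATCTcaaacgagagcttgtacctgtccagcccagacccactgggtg
Zfpm1 intron, 31.3 kb downstream of the start: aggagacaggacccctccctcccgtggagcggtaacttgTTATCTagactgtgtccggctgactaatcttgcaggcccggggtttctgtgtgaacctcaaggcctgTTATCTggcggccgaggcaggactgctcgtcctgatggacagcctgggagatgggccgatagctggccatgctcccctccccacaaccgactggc
Zfpm2 intron, 96.6 kb downstream of a start: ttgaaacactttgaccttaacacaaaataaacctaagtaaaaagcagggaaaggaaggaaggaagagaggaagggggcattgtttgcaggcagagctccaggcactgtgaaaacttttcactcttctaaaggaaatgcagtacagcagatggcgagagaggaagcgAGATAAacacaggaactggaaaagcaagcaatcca

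The libraries held 22511 and 21299 peaks at d4 and 26865 and 24544 at d2. Depth, as the genome-wide background pileup, was 0.755 and 0.744 per base at d4 and 0.568 and 0.483 at d2, and the smallest pileup called at a summit was 7 at d4 and 6 at d2. Because a peak list holds only values past the caller's threshold, "no peak" means no call at this depth and not closed chromatin. Pluripotency promoters were called for 2 and 3 of 6 markers at d4 and for 5 and 6 at d2, and endothelial promoters for 5 and 3 of 7 at d4 and 3 and 4 at d2. The promoters of the 4 blood markers were called in no library. Of the 6 markers of the labelled cell type, embryonic stem cells, Sox2 and Klf4 were called in all 4 libraries, Pou5f1 and Zfp42 in both d2 and in no d4 library, Esrrb in all but d4 replicate 1 and Nanog in d2 replicate 2 only. In these bulk samples, a change in the share of a cell type and a change of accessibility per cell cannot be told apart.

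Among the 31 regions, 4 were gained (a peak in both d4 and in neither d2 library), against 8.48% of all 35041 assigned regions. A further 4 were lost (a peak in both d2 and in neither d4 library), against 13.2% of all, and 5 were shared by all 4 libraries, against 31.9%. The other 18 comprised 3 regions with a peak in 3 libraries, 4 with a peak in 1 library of each day, and 11 with a peak in a single library, against 8.23%, 3.65% and 34.5% of all. All 4 gained regions belonged to GATA genes, 1 each at Gata3, Gata4, Gata5 and Gata6, whereas the lost regions were divided into 1 at Gata5, 2 at Zfpm1 and 1 at Zfpm2. Thus the 21 GATA gene regions had 4 gained and 1 lost, and the 10 FOG gene regions 0 gained and 3 lost. The 0 is bound to the assignment rule, since both FOG genes held a gained region within their bodies that the rule gave to another gene or to none. The 3 lost FOG gene regions are bound to the rules as well. Both at Zfpm1 were nearer to a start of the neighbouring gene Zfp469, and that at Zfpm2 had a d4 replicate 2 peak 130 bases away. On the GATA side, the gained Gata4 region and the lost Gata5 region were nearer to starts that the rule leaves out, of Gm5463 and B230312C02Rik. With peaks within 500 bp merged, the lost regions of the 8 genes numbered 3. Lost regions numbered 10 without d2 replicate 1, and none was left at a −log10 q of at least 10.

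**Figure D1:**
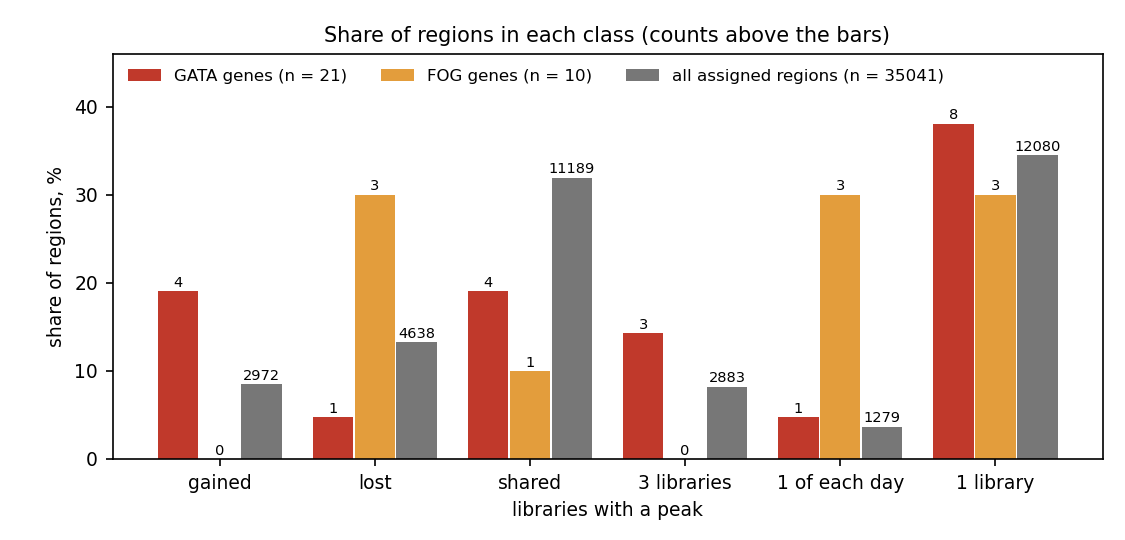
Share (%) of the 21 GATA gene regions, the 10 FOG gene regions and all 35041 assigned regions in each class of libraries with a peak, with counts above the bars. The 4 gained regions are all at GATA genes, and 3 of the 4 lost regions are at FOG genes.

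Strength, as the deposited fold enrichment of the strongest peak, had a median over the called regions of 6.94 and 6.66 at d4 and 6.41 and 7.17 at d2, against 8.16 and 8.16 at d4 and 7.88 and 8.81 at d2 over all assigned regions. The median of the GATA and FOG regions was therefore below the series' median in each library, though single regions lay above it in each. Peaks were called in 12 and 17 of the 31 regions at d4 and in 15 and 20 at d2. The second replicate of each day held more of them than the first, while over all assigned regions it held fewer, 18529 against 19423 at d4 and 22178 against 23133 at d2.

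**Figure D2:**
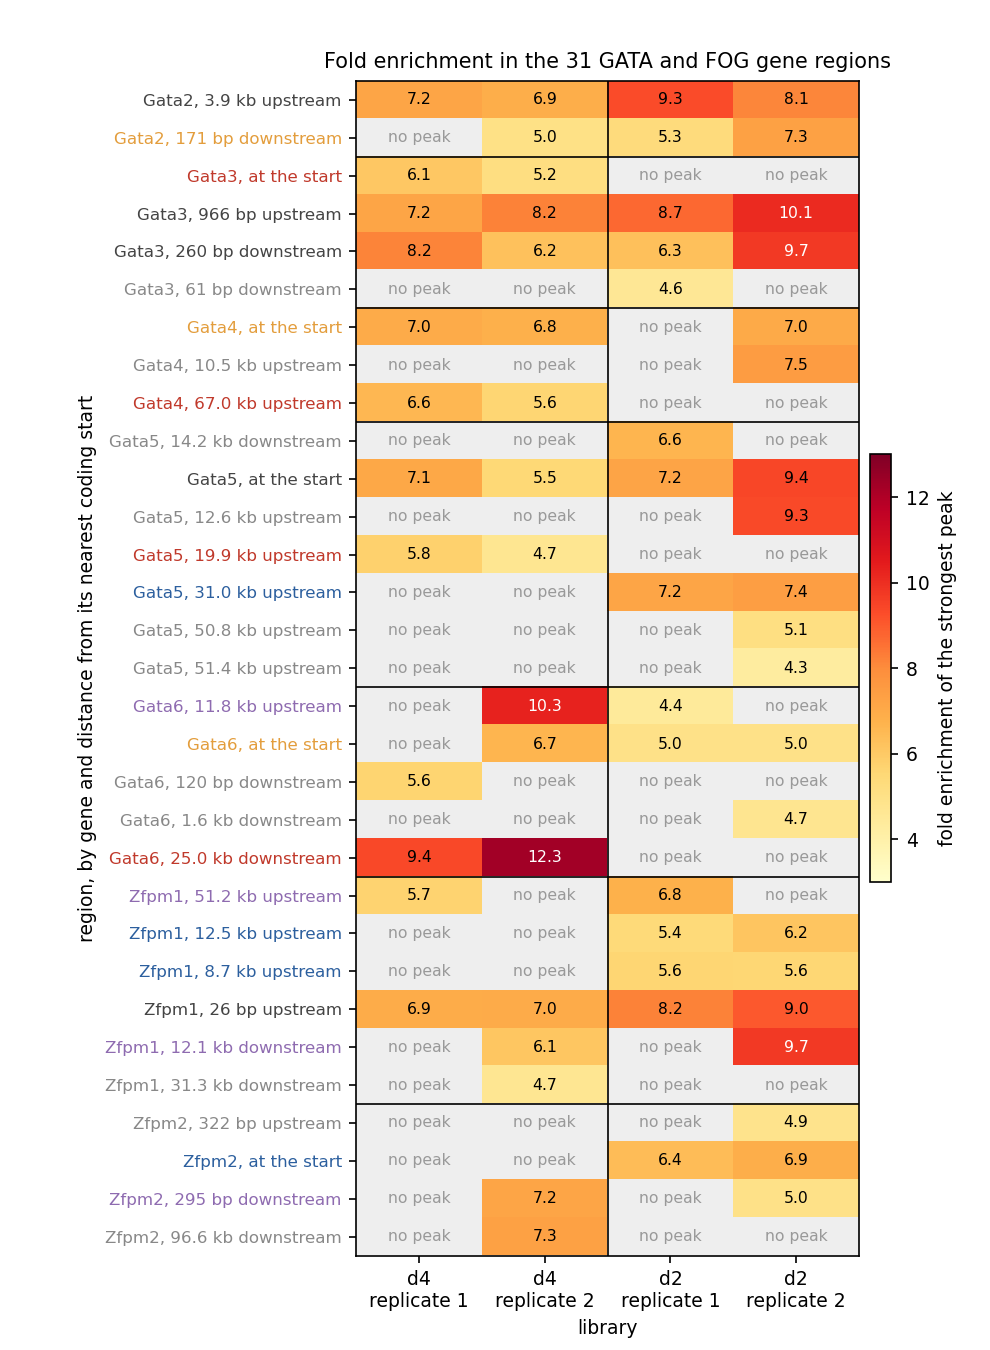
Fold enrichment (colour scale and printed values, pileup + 1 over background + 1) of the strongest peak in each of the 31 regions (rows, by gene and distance from the nearest coding start) in the 4 libraries (columns). Row names are red for gained, blue for lost, dark grey for shared, orange for 3 libraries, purple for 1 library of each day and light grey for 1 library. The highest value is 12.3, at the intronic Gata6 region in d4 replicate 2.

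Gata1, the red cell and platelet member, had no union region. Its gene spans chrX:7959260-7978071 on the minus strand, and the closest region, chrX:7947739-7948170, lay 15996 bp from its nearest coding start, was shared by all 4 libraries and was nearer to Hdac6, a neighbouring deacetylase gene. No peak was therefore called at any of its 3 coding starts or in its body on either day.

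Gata2, the progenitor and endothelial member, had 2 regions and neither gained nor lost one. The region chr6:88189565-88190033, 3.86 kb upstream of its first start and within an intron of the overlapping transcript Gm38708, had fold enrichments of 7.17 and 6.91 at d4 and 9.32 and 8.12 at d2. These rest on summit pileups of 18 and 18 at d4 (95% exact Poisson interval of a pileup of 18, 10.7 to 28.4, for counting error only) and 23 and 21 at d2. Both d4 values lay below both d2 values. The second region, chr6:88198505-88198847, 171 bp downstream of its second start and overlapping a UTR, had 5.01 in d4 replicate 2 and 5.33 and 7.32 at d2, with no peak in d4 replicate 1. Gata2 thus had a called promoter in 1 d4 library and in both d2 libraries.

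Gata3, the T cell member, had 4 regions, each within 1000 bp of a start. The gained one, chr2:9878477-9878921, covered its internal start and exonic sequence with a UTR, and had fold enrichments of 6.08 and 5.19 at d4 and no peak at d2. Its summit pileups of 33 and 30 were the highest of the 4 gained regions, but stood on the highest local background, 4.59 and 4.98 per base. A neighbour on its 5' side, chr2:9879566-9879858, 966 bp upstream of the internal start, was shared, with 7.18 and 8.20 at d4 and 8.74 and 10.1 at d2. With 644 bases between them, one was called at d4 only and the other on both days. Near the first start, chr2:9889355-9889774 had 8.18 and 6.25 at d4 and 6.32 and 9.74 at d2, and the days overlapped. It lies 260 bp downstream of that start and covers an exon of the antisense transcript 9230102O04Rik. The fourth region, next to the first start, had a peak of 4.57 in d2 replicate 1 only. First and internal name the positions of the starts and do not show which is used more.

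Gata4, a factor of heart and endoderm, had 3 regions. Its gained region, 67.0 kb upstream of the first start in an intron of the gene Gm5463, had fold enrichments of 6.57 and 5.59 at d4, with pileups of 16 and 14 and no peak at d2. With the limit at 50 kb it would not be assigned, and a start of Gm5463, which the rule does not count, lay nearer to it, at 9514 bp. The region chr14:63245235-63245699, over an internal start with a UTR, had 6.97 and 6.82 at d4 and 7.01 in d2 replicate 2, and no peak in d2 replicate 1. An intronic region had a peak of 7.46 in d2 replicate 2 only, so d2 replicate 1 held no Gata4 peak at all.

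Gata5, also of this subgroup, had the most regions. A shared promoter region, chr2:180334513-180335025, had fold enrichments of 7.10 and 5.46 at d4 and 7.19 and 9.42 at d2, with both d4 values below both d2 values. The gained region, chr2:180354590-180355165, lay between genes 19.9 kb upstream and had 5.77 and 4.69 at d4, on pileups of 15 and 13, and no peak at d2. Its d4 peaks had summits 359 bp apart and were joined by their overlap, the widest spread of the 4 gained regions. Farther out, chr2:180365672-180365863 was lost, with no peak at d4 and 7.18 and 7.38 at d2. A start of B230312C02Rik, a gene whose starts the rule does not count, was nearer to this lost region, at 20022 bp. Upstream of Gata5, a peak seen at d4 only and a peak seen at d2 only thus had 10.5 kb between them. The other 4 regions were each called in a single d2 library, at 6.64 in replicate 1 and at 9.34, 5.11 and 4.26 in replicate 2. Those at 5.11 and 4.26 lay 303 and 206 bp from a start of B230312C02Rik, and that at 6.64 was nearer to a start of Gata5os. Their link to Gata5 is thus by the distance rule alone.

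Gata6, which acts beside GATA4 in heart and endoderm, had 5 regions and the strongest gained one. The region chr18:11078058-11078602, in an intron 25.0 kb downstream of a start, had fold enrichments of 9.40 and 12.3 at d4, with pileups of 18 and 28, and no peak at d2. Its weaker value lay above that of 87.3% of all 2972 gained regions, whereas those of Gata3, Gata4 and Gata5 lay above 11.2%, 18.6% and 3.73%. A region over its start had no peak in d4 replicate 1, 6.66 in d4 replicate 2, and 4.97 and 4.96 at d2, but d4 replicate 1 had a peak of 5.63 in a separate region 120 bp downstream of another start, so a promoter was called in all 4 libraries. The region 11.8 kb upstream had 10.3 in d4 replicate 2 and 4.44 in d2 replicate 1 and no peak in their partners, so the replicates of both days disagreed there. The last region had a peak of 4.72 in d2 replicate 2 only.

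**Figure D3:**
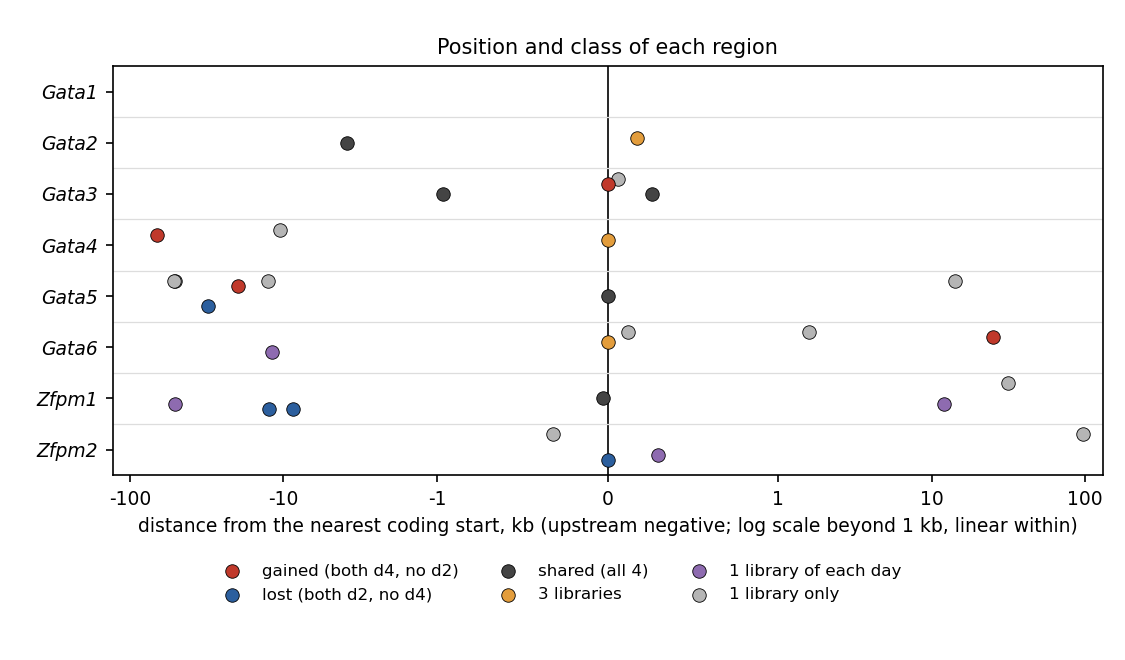
Signed distance (kb, upstream negative, log scale beyond 1 kb) of each region from the nearest coding start of its gene, with colours for the libraries that had a peak. Both Gata5 regions near 51 kb upstream overlap in the plot. The gained regions of Gata4, Gata5 and Gata6 lie 67.0, 19.9 and 25.0 kb from a start, and that of Gata3 covers one.

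Zfpm1, the FOG1 gene, had 6 regions, of which 2 were lost. Its promoter region, chr8:122281081-122282115, was shared, with fold enrichments of 6.91 and 6.98 at d4 and 8.23 and 9.04 at d2, and both d4 values lay below both d2 values. The lost region chr8:122273277-122273422, 8.72 kb upstream in an intron of the overlapping gene Gm20388, had no peak at d4 and 5.58 and 5.56 at d2. The other lost region, chr8:122269421-122269658, had no peak at d4 and 5.42 and 6.16 at d2. It lies in an exon of Zfp469, a neighbouring zinc finger gene, so that its link to Zfpm1 is by the distance rule alone. The lost region 8.72 kb upstream was also nearer to a start of Zfp469, at 3708 bp. In the introns of Zfpm1, a region 12.1 kb downstream had 6.09 in d4 replicate 2 and 9.74 in d2 replicate 2, and one at 31.3 kb had 4.65 in d4 replicate 2 only. A region 51.2 kb upstream had 5.68 in d4 replicate 1 and 6.79 in d2 replicate 1.

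The 3' part of the Zfpm1 body held 3 more regions, which were nearer to a start of Trhr2, a thyrotropin-releasing hormone receptor gene, and are not among the 31. The region chr8:122322732-122323021, 40.6 kb from the Zfpm1 start, was gained, with fold enrichments of 6.87 and 4.84 at d4 and no peak at d2, and held 2 GATA matches. The region chr8:122323951-122324508, 929 bases further on, was lost, with no peak at d4 and 8.24 and 8.37 at d2. Another, chr8:122336294-122336929, was also lost, with 6.39 and 10.2 at d2. When the starts of all transcripts of protein-coding genes were used, the lost regions of the 8 genes numbered 7 in place of 4.

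Zfpm2, the FOG2 gene, had 4 regions, 3 of them within 1000 bp of its first start. The region over that start and its UTR, chr15:40654901-40655199, was lost, with no peak at d4 and fold enrichments of 6.41 and 6.88 at d2, on pileups of 12 and 13. It was the only lost region among the 8 genes to cover a start. Downstream of it, chr15:40655330-40656237 had 7.16 in d4 replicate 2 and 4.99 in d2 replicate 2, so the promoter was not without a peak at d4 in both libraries. Just upstream, a peak of 4.87 was called in d2 replicate 2 only. The intronic region at 96.6 kb, just inside the limit, had 7.30 in d4 replicate 2 only. Nearest outside the limit, an intronic region of Zfpm2 160.0 kb from a start, chr15:40824940-40825436, was gained, with 9.53 and 8.73 at d4 and no peak at d2, and on the Zfpm1 side a region at 118.9 kb had 7.65 in d2 replicate 1 only.

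The 11 regions called in a single library fell 1 and 2 to the d4 replicates and 2 and 6 to the d2 replicates, where all assigned regions had 2589 and 1957 at d4 and 4172 and 3362 at d2. Their fold enrichments ranged between 4.26 and 9.34, on pileups of 9 to 18. The members thus had the most in d2 replicate 2 and the series in d2 replicate 1, and the part of depth in these calls was not tested.

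In the 5 shared regions values of both days could be set side by side, as the ratio of summit pileup to local background. This ratio is a contrast of peak to background in libraries that differed in depth between the days, and not a direct measure of accessibility. The log2 ratio of d4 over d2 was −0.34 at Gata2, −0.34 and −0.10 at the 966 bp upstream and 260 bp downstream regions of Gata3, −0.43 at Gata5 and −0.39 at Zfpm1, with a median of −0.34. Over all 11189 shared regions the median was −0.20, which leaves the members at −0.14 once it is subtracted. The SD between replicates of a day, in log2 pileup over background, averaged 0.205 over the 5 regions, more than that remainder. In 4 of 5 regions both d4 libraries lay below both d2 libraries, which held for 43.0% of all shared regions. In 0 of 5 did both lie above, against 6.72% of all. The fifth, near the first Gata3 start, overlapped, with 13.6 and 9.29 at d4 and 9.19 and 15.7 at d2. With 2 libraries a day the smallest p that an exact permutation test allows is 0.333, and none was made.

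**Figure D4:**
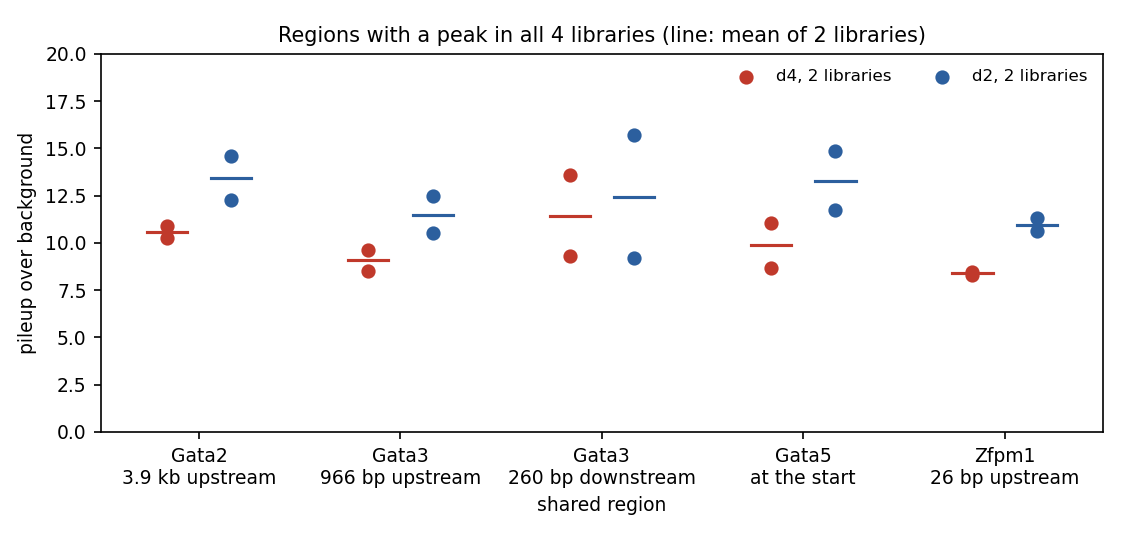
Summit pileup over local background (ratio, no unit) in the 5 regions with a peak in all 4 libraries, with a point for each library and a line at the mean of the 2 libraries, d4 in red left of d2 in blue. The d4 points lie below the d2 points in 4 regions and overlap them at the Gata3 region 260 bp downstream of the first start.

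The letters that GATA factors bind were found within 100 bp of the summit in 5 of the 31 regions, against 13.3% of all assigned regions. The 5 were the gained regions of Gata4 (1 match) and Gata6 (2 matches), both described above, the Zfpm1 intronic regions at 12.1 kb (1 match) and 31.3 kb (2 matches), and the Zfpm2 intronic region at 96.6 kb (1 match). None lay within 1000 bp of a start, and the promoter regions of the GATA genes held no match. Among gained regions 2 of 4 held a match, against 49.7% of all gained regions. Lost regions had 0 of 4, against 6.92% of all lost regions, and shared regions 0 of 5, against 4.29%. The count was 3 when the search was narrowed to 50 bp each side. It was 6 over the whole region, and 6 with GATA followed by A or G.

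All 5 matched regions had a peak in d4 replicate 2. Of the 14 regions without a peak in that library 0 held a match, against 11.1% of all assigned regions without one. Of the 19 without a peak in d4 replicate 1, 3 held a match, against 10.4%. By library, 2 of 12 and 5 of 17 called regions held a match at d4 and 0 of 15 and 1 of 20 at d2, against 15.5% and 15.2% at d4 and 5.87% and 5.37% at d2 over all assigned regions. The order of the days was the same for the members as for the series, on 5 regions, of which 3 lacked a peak in d4 replicate 1.

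**Figure D5:**
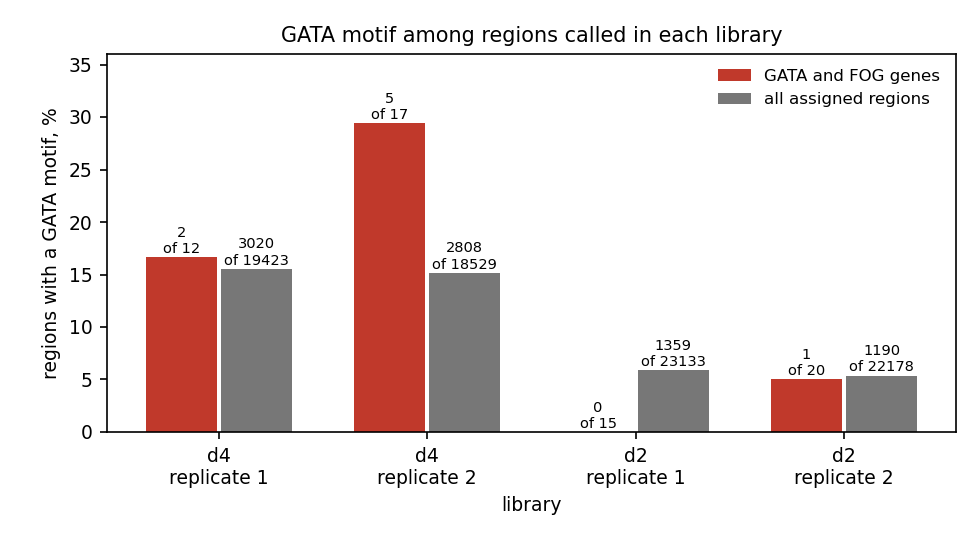
Share (%) of regions called in each library that held AGATAA or TGATAA on either strand within 100 bp of the summit, for the GATA and FOG genes and for all assigned regions, with counts above the bars. The members' share is highest in d4 replicate 2, at 5 of 17 regions.

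The other letters searched were rarer or absent. ETS letters (CCGGAAG or CAGGAAG), bound by endothelial and blood factors among others, were found in 3 of 31 regions against 17.1% of all. Of these, 1 was the gained Gata6 region and 1 the shared region near the first Gata3 start. AP-1 letters (TGANTCA) were found in 2 of 31 against 5.66% of all, in the lost Gata5 region and the shared Gata3 region 966 bp upstream of its internal start. T-box (AGGTGTGA), forkhead (TGTTTAC) and octamer (ATGCAAAT) letters were found in 0 of 31, against 0.819%, 2.82% and 1.64% of all. Base composition followed the classes, with a median GC content of 54.0% in the 4 gained, 62.2% in the 4 lost and 68.7% in the 5 shared regions, against 51.7%, 57.2% and 65.2% over all regions of each class.

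Positions were also set against the series. Of the 31 regions, 13 lay within 1000 bp of a start (41.9%, against 44.6% of all), and the median distance was 8.72 kb against 3.15 kb. Among 15068 genes with a region, 4.07% had at least the 7 regions of Gata5, and 4.85% had at least the 2 lost regions of Zfpm1. Having 1 gained region or more, as 4 of the GATA genes did, was shared with 15.2% of genes. Those 4 genes had 3 to 7 regions each, and 31.1% of genes had at least 3. The 15.2% was not matched for the number of regions.

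By the number of regions called in each library, Foxp4 and Synm had the same 4 counts as Gata5 (2 and 2 at d4, 3 and 5 at d2), at a Euclidean distance of 0. Gata5 was taken from the 4 genes tied for the most gained regions as that with the most regions, a choice made after the values were seen. The likeness is over 4 libraries only, and takes no account of where the regions lie.

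Genes of the proteins that work with GATA factors were counted in the same way. The 15 partners in GATA complexes had 80 regions, with 9 gained, 10 lost and 19 shared. Tbx20, a cardiac T-box factor, had 3 gained and 1 lost, Runx1, a regulator of blood cell emergence, 2 and 2, and Hand2, a cardiac helix-loop-helix factor, 0 and 2. The 11 genes of the NuRD and CtBP repressors that FOG proteins recruit had 31 regions, with 1 gained, 3 lost and 11 shared. The 5 other genes with GATA-type zinc fingers had 14 regions, with 2 gained, both at the NuRD subunit gene Gatad2a, 0 lost and 6 shared. Gained regions thus made up 11.2%, 3.23% and 14.3% of the 3 lists, against 8.48% of all assigned regions, lost regions 12.5%, 9.68% and 0%, against 13.2%, and shared regions 23.8%, 35.5% and 42.9%, against 31.9%.

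Among genes known as GATA targets, the 10 erythroid genes had 9 regions, with 1 gained, at the haem synthesis gene Alas2, and 1 lost. The 10 cardiac and endodermal genes had 33 regions, with 1 gained and 7 lost, of which Foxa2, an endodermal forkhead factor, held the gained one and 4 of the lost. The 8 endothelial genes had 22 regions, with 1 gained, at the VEGF receptor gene Kdr, 1 lost, at the angiopoietin receptor gene Tek, and 18 called in a single library, a class that held 34.5% of all assigned regions. The gained shares were 3.03% for the cardiac and endodermal list, 11.1% for the erythroid and 4.55% for the endothelial one, against 8.48% of all. The share of lost regions was 21.2% for the cardiac and endodermal list, 11.1% for the erythroid and 4.55% for the endothelial one, against the 13.2% of all assigned regions.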

How the data were processed

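By the study's methods, and as the submitters' notes list, reads were checked with FastQC, trimmed with cutadapt and aligned to mm10 with Bowtie2, mitochondrial, duplicate and multiply mapped reads were removed, and MACS2 called peaks in each library alone. Its stated options join paired-end mode to a read shift and extension that this mode ignores. The deposited fold enrichment is the ratio (pileup + 1) / (background + 1) at the summit, and the deposited −log10 p and −log10 q columns hold the caller's Poisson p-value and q-value. Pileup and background were solved from fold and p, giving whole pileups in 100% of peaks (to within 0.01 in −log10 p). Peaks overlapping by 1 bp or more were merged and assigned with GENCODE M 21. No test between days was made, since the lists hold no value where no peak was called. Summit windows were read with pysam 0.24.0 from RefSeq GRCm38. The tools were Python 3.11.15, numpy 2.4.6, scipy 1.17.1 and pandas 2.3.3. The calculations were tested on simulated data. The rule named all 8 genes, gave values in every library for regions with a peak in both libraries of a day and counts or ranges for others, of which several were named after their values were seen. The members and lists were chosen with earlier results of these data known. Alternatives covered overlap, threshold, merging, assignment, motif window and left-out libraries. Some sequences and genes that the rule selects are not reported here.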

Additional observations from a re-analysis of the deposited data

How the results depend on the processing

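With peaks of −log10 q of at least 10, the GATA and FOG genes had 13 regions, with 2 gained, 0 lost and 3 shared, and among the top 15000 peaks of each library 16 regions, with 0 lost and 3 shared. With the nearest start of a gene of any type, 3 were shared, and with the starts of all transcripts of protein-coding genes, an alternative chosen after seeing the data, 7 were lost. With a 50% reciprocal overlap of peaks, 3 were gained, 3 lost and 4 shared. Leaving out each library in turn gave 25 to 30 regions, 4 to 6 gained, 4 to 10 lost and 5 to 7 shared, with 10 lost without d2 replicate 1. The median log2 ratio of shared regions was −0.45 to −0.26 in these fits, and −0.14 with the median of all shared regions subtracted. A GATA motif was found in 3 regions within 50 bp of the summit, in 6 over the whole region, and in 6 with GATA followed by A or G. Replicates were not paired across days, since labels and methods do not state that those of the same number share a differentiation experiment. No result comes from a test that a replicate term could enter. The smallest pileups called were 7 at d4 and 6 at d2, so weak peaks rest on few fragments and can be missed.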

Other observations

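Beyond the limit of 100 kb, 11 more union regions had a GATA or FOG gene start as the nearest. Of these 7 belonged to Gata3 and ranged between 284.5 kb and 1204 kb from its start. They comprised 0 gained and 0 lost regions, with 1 called in 1 library of each day and 6 in a single library. Zfpm2 had 2 such regions in its 449.6 kb body, 1 of them the gained region described above and 1 called at a fold enrichment of 6.02 in d4 replicate 1 only. Taking the regions within the bodies of the FOG genes whatever their nearest start, 2 were gained, 1 in each gene, and both held GATA matches, 2 at Zfpm1 and 1 at Zfpm2, as 49.7% of all gained regions held at least 1. Lost regions in these bodies numbered 2 at Zfpm1 and 1 at Zfpm2. These regions were noted after their values were seen.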
